A study of Mus musculus with 37 samples.

Results

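Uterine natural killer (uNK) cells that carried Ly49C/I but not NKG2A were compared here with uNK cells that carried neither receptor, the uneducated population, in WT C57BL6 mice. The members are libraries, chosen by their labels: 6 Ly49C/I+ libraries (numbered 1, 2, 4, 5, 7 and 8 in their descriptions and 1 to 6 in their titles) and 9 uneducated libraries (numbered 1 to 9), 15 of the 37 libraries in the series. All 53700 genes of the count tables were read in them. The series sorted uNK cells of pregnant mice, taken from the uterus between gestation days 9.5 and 10.5, and measured their mRNA by bulk RNA-seq. Its other 3 groups are 9 libraries of NKG2A+ Ly49C/I- cells from the same WT strain, and, in mice labelled NKG2A KO C57BL6, 8 libraries of uneducated and 5 of Ly49C/I+ cells. The labels name no treatment. Cells of every group were live, CD45+ and NKp46+, and negative for CD3, CD4, CD8 and high CD11b, among other markers of the gate. Cells with both NKG2A and Ly49C/I were not collected. In NKG2A KO mice NKG2A is missing, so the gate there cannot remove cells that would otherwise carry it. The antibody listed for NKG2A also binds NKG2C and NKG2E, so its negative gate can remove cells with those receptors too. The methods give an age for mice of the strain but do not name the pregnant mice there, and the sources used here do not say whether 1 mouse or several made up a library. P-values therefore measure the spread between these libraries, which may in part be technical.

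Ly49 receptors are C-type lectin-like molecules on mouse NK cells, encoded side by side with each other in the NK gene complex. Ly49C and Ly49I are inhibitory and bind classical MHC class I, which in C57BL6 mice includes H2-K and H2-D, whereas CD94/NKG2A binds the non-classical molecule Qa-1. An NK cell whose inhibitory receptor meets self MHC class I during its development acquires a higher capacity to respond, a process called education or licensing, while a cell without such a receptor stays hyporesponsive. uNK cells gather in the decidua in early pregnancy, where they secrete cytokines, growth factors and granule proteins and take part in the remodelling of maternal vessels.

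Each library held between 15672839 and 18173312 reads on genes, and the Ly49C/I+ libraries did not differ from the uneducated ones beyond the spread in reads on genes (exact two-sided permutation test, p = 0.17, adjusted over 3 measures 0.255) or in the number of genes with a count (p = 0.892, adjusted p = 0.892). They did differ in the share of reads that the counting gave to no gene. This share was 5.30% ± 0.99 (SD, n = 6, range 4.16% to 6.83%) in Ly49C/I+ libraries and 3.44% ± 0.50 (SD, n = 9, range 2.90% to 4.47%) in uneducated libraries (exact permutation p = 4e-04, adjusted p = 0.0012). It was above every uneducated library in 5 of 6 Ly49C/I+ libraries, so it moved with the groups. Sums over marker genes of other cell types were compared without a test. T cell markers summed to 792 to 1002 CPM against 553 to 789 CPM. Of 12 markers 7 were tested, with Trbc1 and Trbc2 called higher, and Cd4, Cd8a, Cd8b1 and Cd5 were at medians under 1 CPM. These sums did not overlap. Red cell markers summed to 789 to 2539 CPM against 190 to 1260 CPM, with none of 5 tested called, and macrophage and monocyte markers to 617 to 1046 CPM against 589 to 760 CPM, with none of 3 tested called and Adgre1, Csf1r, Mrc1 and Fcgr1 under 1 CPM. The ranges overlapped in both lists. Medians were lower for markers of dendritic cells (569 to 800 CPM against 621 to 1015 CPM, Cd74 and H2-Ab1 called lower), endothelium (143 to 219 against 219 to 345 CPM, Pecam1 called lower) and epithelium (124 to 270 against 218 to 394 CPM, Epcam called lower), with overlap in the first and the last list. In these lists Xcr1, Clec9a, Cd209a, Siglech, Cdh5, Kdr, Krt8 and Krt19 were at medians under 1 CPM. Neutrophil and trophoblast markers were each under 1 CPM at the median for all 8 markers. The sums also overlapped for B cells and plasma cells, decidual stroma, ILC2 and ILC3, platelets, and for NK cells (13368 to 16063 CPM against 13207 to 16527 CPM). The part of these cell types in the results was not tested. Levels in CPM are read counts on genes relative to the library size, scaled by TMM.

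The sorted receptors were looked at first. Klra9, which encodes Ly49I, lay between 466 and 734 CPM (median 680.5) in Ly49C/I+ libraries and between 50.2 and 111 CPM (median 64.7) in uneducated libraries (log2 fold change 3.22 ± 0.16, adjusted p = 4.54e-10). The value after ± is a standard error worked back from the fold change and the F statistic of edgeR's quasi-likelihood test. All 6 Ly49C/I+ libraries were above all 9 uneducated ones, and the lowest of the 6 was library 2. Klra3, which encodes Ly49C, went the other way. It lay between 25.4 and 82.3 CPM (median 58.6) in Ly49C/I+ libraries and between 69.5 and 213 CPM (median 137) in uneducated libraries (log2 fold change -1.31 ± 0.26, adjusted p = 0.00593). No Ly49C/I+ library reached the uneducated median, although the ranges overlapped. Of the receptors named in the sort, the gene of Ly49I was higher and the gene of Ly49C lower. In the GENCODE M21 annotation of GRCm38, Klra9 lies on chromosome 6 from 130178675 to 130193112 on the minus strand, and Klra3 on chromosome 6 from 130323289 to 130337574 on the minus strand. Klra9 shared 31.5% and Klra3 20.7% of their stretches of 50 bases with other Ly49 genes, so both values are uncertain by as much as the counting could split reads between them. Klrc1, which encodes NKG2A, was near the floor in both groups, between 1.28 and 7.94 CPM in Ly49C/I+ and between 1.25 and 13.8 CPM in uneducated libraries, and was not tested. In the NKG2A+ libraries it lay between 494 and 760 CPM. Ncr1, which encodes NKp46 of the NK gate, rose by 0.26 on the log2 scale (adjusted p = 0.0498), a call that was lost without any 1 of 14 of the 15 libraries (all but uneducated 5). For Ptprc, which encodes CD45, the log2 fold change was 0.25 (adjusted p = 0.0583). For Klrb1c, which encodes NK1.1, it was 0.41 (adjusted p = 0.07). 

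Across all genes, 9292 were tested and 855 (9.2%) passed an adjusted p of 0.05 in the quasi-likelihood test of edgeR. Of these, 418 (4.5%) were higher and 437 (4.7%) lower in Ly49C/I+ cells. Most differences were small. The median size of a called difference was 0.63 on the log2 scale, and 66 genes were higher and 89 lower by more than 1. The libraries did not overlap between the groups for 117 of the genes tested that were higher (1.26%) and for 111 that were lower (1.19%). The log2 fold change had a median of 0.01 over all genes tested. In bulk libraries, fewer cells that hold a transcript and less of it in each cell cannot be told apart. A gene had to reach 5 CPM in at least 0.5 of the 15 libraries, which the uneducated group can fill alone and the Ly49C/I+ group cannot, so a gene present only in Ly49C/I+ cells was not tested. Single libraries are named below by group and number, so that Ly49C/I+ 7 is library 7 of that group. The count was 466 without Ly49C/I+ 7, 564 without Ly49C/I+ 5 and 539 without uneducated 3. With the share of reads given to no gene as a covariate, a fit added after the data were seen, 3 genes passed: Klra9 (log2 fold change 3.02, adjusted p = 3.02e-06), Dap (-0.96, adjusted p = 0.0165) and Fam178b (-3.96, adjusted p = 0.0165). In that fit no member of the 29 gene lists described below, which name 968 genes, passed apart from Klra9. The fold changes moved unevenly in that fit. The median was 0.62 for interferon-stimulated genes, 0.38 for MHC class I, -0.25 for the unfolded protein response, -0.34 for glycolysis and -0.36 for cholesterol and fatty acid synthesis, against 0.58, 0.36, -0.41, -0.50 and -0.54 without the covariate. By gene, Kcnj8 went from 2.54 to 2.82 and Irf7 from 1.10 to 1.12, while Klra3 went from -1.31 to -0.49 and Itpkb from 1.36 to 0.45. With no filter on low counts, which tests more genes, 451 genes passed, and among the genes named below the calls of Cpne7, Klrk1, Lck, Ets1, Birc2, Elmo3 and Hs3st3b1 were lost, as were those of many genes whose call is also given below as lost without single libraries. The share differs between the groups, so share and group cannot be fully told apart in these libraries.

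**Figure D1:**
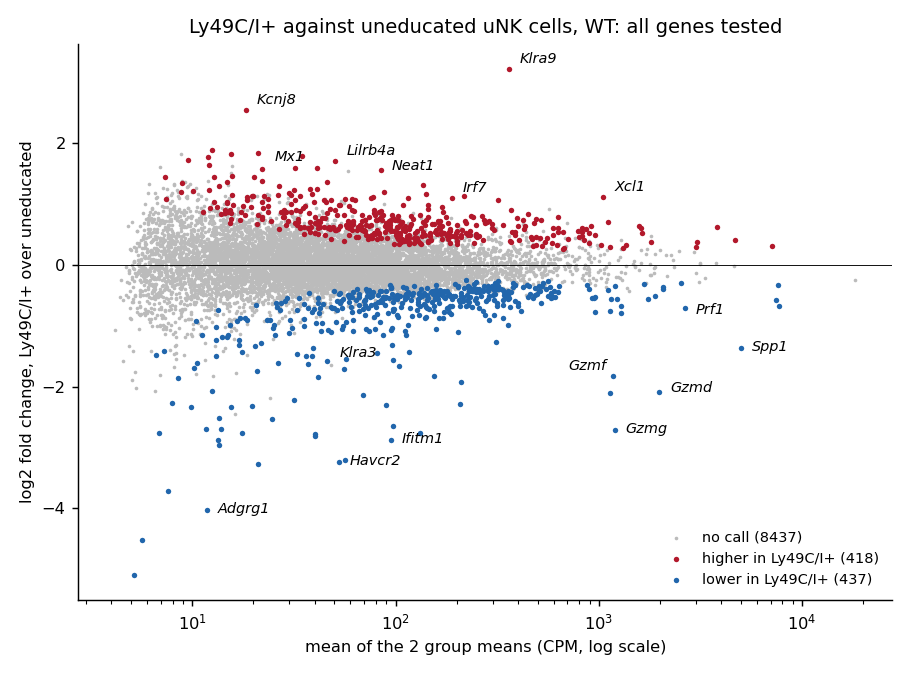
Log2 fold change of Ly49C/I+ against uneducated WT uNK cells (vertical axis) against the mean of both group means in CPM on a log scale (horizontal axis) for the 9292 genes tested, with genes past an adjusted p of 0.05 in colour and some of the genes described in the text named. The 418 higher and 437 lower genes lie over the whole range of levels, and Klra9 stands apart at 3.22.

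The largest increases with libraries that did not overlap began with Klra9 and Kcnj8. Kcnj8, the pore-forming subunit Kir6.1 of an ATP-sensitive potassium channel, lay between 18.2 and 53.0 CPM (median 29.2) in Ly49C/I+ libraries and between 0.0674 and 18.1 CPM (median 4.61) in uneducated libraries (log2 fold change 2.54 ± 0.57, adjusted p = 0.01). The gene lies on chromosome 6 from 142564837 to 142571614 on the minus strand. Uneducated library 9 came close to the lowest Ly49C/I+ library, and the other 8 uneducated libraries stayed at or under 6.82 CPM. Lilrb4a, an inhibitory immunoglobulin-like receptor, lay between 59.6 and 97.6 CPM (median 77.5) in Ly49C/I+ libraries and between 18.2 and 38.0 CPM (median 20.6) in uneducated libraries (log2 fold change 1.71 ± 0.19, adjusted p = 0.000148). It shares 47.2% of its 50-base stretches with neighbouring copies, so its level is uncertain. Neat1, the long non-coding RNA that scaffolds paraspeckles, lay between 92.4 and 155 CPM (median 129.9) in Ly49C/I+ libraries and between 24.4 and 64.0 CPM (median 41.4) in uneducated libraries (log2 fold change 1.55 ± 0.19, adjusted p = 0.000278). Small nucleolar RNAs were also on this list: Rnu3a, a U3 RNA with identical copies elsewhere, rose by 1.84 (adjusted p = 0.000435), and Snord13 rose by 1.37 (adjusted p = 0.00398). Itpkb, an inositol trisphosphate kinase, rose by 1.36 (adjusted p = 0.00185), and Cpne7, a calcium-dependent phospholipid-binding protein, rose by 1.57 (adjusted p = 0.0213). Mx1, an interferon-induced GTPase, rose by 1.60 (adjusted p = 0.0316), but this call was lost without uneducated 1, 3, 4 or 8 or Ly49C/I+ 4, 5, 7 or 8. The non-coding or predicted genes Gm20743, Gm5547 and Gm20559 rose by 1.82, 1.46 and 1.38. Gm20743 overlaps Xcl1 on the opposite strand, and reads of the pair cannot be told apart without strand.

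The largest decreases at a mean of at least 20 CPM included a checkpoint receptor, a granule protease and a transcription factor. Havcr2, the checkpoint receptor TIM-3, lay between 0 and 26.6 CPM (median 7.92) in Ly49C/I+ libraries and between 30.1 and 173 CPM (median 85.7) in uneducated libraries (log2 fold change -3.23 ± 0.65, adjusted p = 0.00595). Ctsg, the granule protease cathepsin G, lay between 1.65 and 26.0 CPM (median 9.70) in Ly49C/I+ libraries and between 44.3 and 173 CPM (median 108) in uneducated libraries (log2 fold change -3.21 ± 0.57, adjusted p = 0.0032). No Ly49C/I+ library reached the lowest uneducated library for either gene. Adgrg1, the adhesion receptor GPR56, lay between 0 and 4.44 CPM (median 0) in Ly49C/I+ libraries and between 4.66 and 45.6 CPM (median 14.6) in uneducated libraries (log2 fold change -4.02 ± 1.06, adjusted p = 0.0247). Of the 6 Ly49C/I+ libraries, 4 had no read on Adgrg1 and none reached 5 CPM, so the gene was tested through the uneducated group alone, and its call was lost without uneducated 3 and with no filter. Epas1, the hypoxia-inducible factor HIF-2alpha, lay between 1.22 and 19.8 CPM (median 10.2) in Ly49C/I+ libraries and between 25.9 and 159 CPM (median 75.1) in uneducated libraries (log2 fold change -2.78 ± 0.55, adjusted p = 0.00552). Scin, the actin-severing protein scinderin, lay between 12.3 and 61.3 CPM (median 32.1) in Ly49C/I+ libraries and between 96.4 and 398 CPM (median 194) in uneducated libraries (log2 fold change -2.76 ± 0.43, adjusted p = 0.00109). Smaller levels stood behind Piwil4, a Piwi family protein, which fell by 2.88 (adjusted p = 0.00938), Anxa3, an annexin, which fell by 2.76 (adjusted p = 0.00265), and Fam178b, which fell by 2.70 (adjusted p = 0.00323). In Ly49C/I+ libraries Piwil4 lay between 0 and 6.01 CPM, Anxa3 between 0.472 and 9.25 CPM and Fam178b between 0.891 and 5.59 CPM. All 9 uneducated libraries were above 5 CPM for each, so these genes could pass the filter through the uneducated group alone. Tmem119, a membrane protein known from microglia and bone, fell by 2.81 (adjusted p = 0.000956), and Basp1, a membrane-bound signalling protein, fell by 2.64 (adjusted p = 0.00185). Under a filter of 5 CPM in at least 6 libraries, which a gene can pass through the Ly49C/I+ group alone and then has to differ, the largest added increases were Hs3st3b1, a heparan sulphate sulphotransferase (log2 fold change 2.16), Elmo3 (2.00), ENSMUSG00000119520 (1.84) and Snord118, the U8 small nucleolar RNA (1.74).

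**Figure D2:**
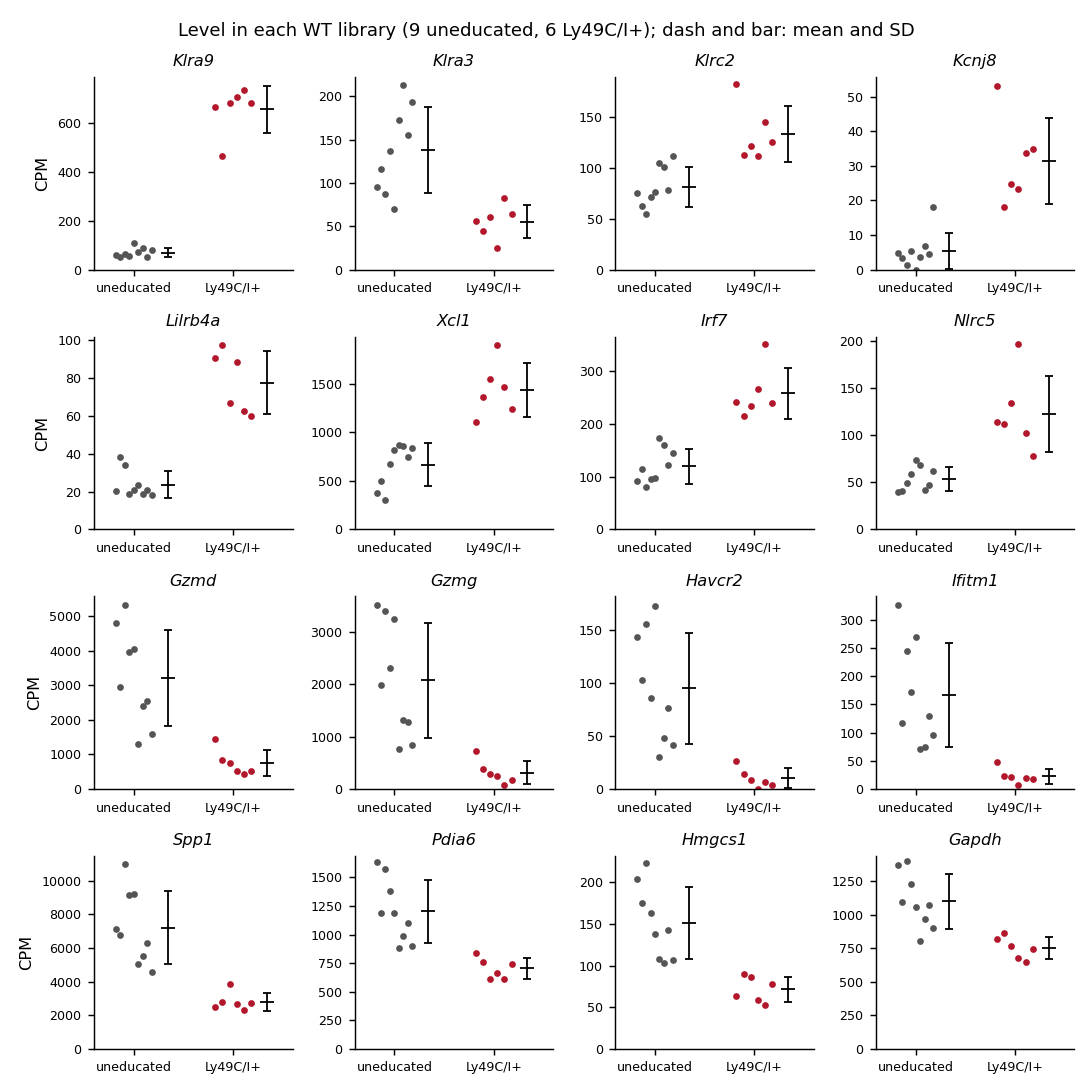
Level in CPM of 16 genes in each of the 9 uneducated and 6 Ly49C/I+ WT libraries, with 1 panel a gene, points for libraries and bars for the mean and SD. Klra9, Kcnj8 and Lilrb4a are above every uneducated library in all 6 Ly49C/I+ libraries, and Havcr2, Ifitm1 and Gzmg are below every uneducated library.

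Among the receptors of the NK gene complex, called changes outside Klra9 and Klra3 (log2 fold change -1.31) were small and went both ways. Of 10 Ly49 genes tested, 3 were higher and 2 lower, with a median log2 fold change of 0.45 against 0.01 over all genes. Counts in this and the later lists stand beside shares of 4.5% higher and 4.7% lower over all genes tested. Klra7, which encodes the inhibitory receptor Ly49G, fell by 0.48 (adjusted p = 0.00683), a call lost with offsets for GC content and length. The pseudogenes Klra13-ps and Klra14-ps rose, the first by 0.79 (adjusted p = 0.0217) and the second by 0.66 (adjusted p = 0.0455), and the first lost its call without Ly49C/I+ 5 or 7. Klra4 and Klra8, which encode the activating receptors Ly49D and Ly49H, had log2 fold changes of 0.35 and 0.56 that did not pass. The number of higher Ly49 genes was 1 without Ly49C/I+ 5 or 7. In the CD94, NKG2 and NKR-P1 list, 3 of 13 genes were higher and 1 lower, and the higher genes numbered 5 without uneducated 9 and 6 without uneducated 6. Klrc2, which encodes the activating receptor NKG2C, lay between 111 and 182 CPM (median 123) in Ly49C/I+ libraries and between 54.4 and 111 CPM (median 76.5) in uneducated libraries (log2 fold change 0.70 ± 0.16, adjusted p = 0.0101). Its libraries overlapped only between the lowest Ly49C/I+ and the highest uneducated library. Klre1, a receptor of the same complex, rose by 0.55 (adjusted p = 0.0108), and Klrk1, which encodes the activating receptor NKG2D, rose by 0.50 (adjusted p = 0.0178), a call lost with offsets for GC content and length and with no filter. For both, every Ly49C/I+ library was above every uneducated library. Klrg1, an inhibitory receptor for cadherins, fell by 0.53 (adjusted p = 0.0182), and Klrc3, which encodes NKG2E, had a log2 fold change of 0.63 (adjusted p = 0.197).

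Inhibitory receptors of other families moved apart from one another. Of 11 inhibitory and checkpoint receptors tested, 3 were higher (Lilrb4a, Lilr4b and Cd300lf, with no overlap between the libraries) and 2 lower. Lilr4b, the neighbouring copy of Lilrb4a, rose by 1.32 (adjusted p = 0.000294), and Cd300lf, an inhibitory lipid receptor, rose by 1.14 (adjusted p = 0.00703). Havcr2 led the decreases, and the number of lower genes was 1 without uneducated 1, 2, 3, 4 or 8 or Ly49C/I+ 4, 5, 7 or 8. Of 16 other activating and adhesion receptors, 4 were higher and 2 lower, against 4.5% and 4.7% of all genes tested. Cd160, a receptor for HVEM and MHC class I, rose by 0.82 (adjusted p = 0.0128), and Cd2, an adhesion molecule, rose by 0.72 (adjusted p = 0.0128). Tnfrsf9, the costimulatory receptor 4-1BB, fell by 0.56 (adjusted p = 0.00796), and Fcgr3, the Fc receptor CD16, fell by 0.65 (adjusted p = 0.0134). The number of higher genes in this list was 2 without uneducated 1, 2, 3 or 4 or Ly49C/I+ 4, 5, 7 or 8. Cd226, which encodes the activating receptor DNAM-1, lay between 6.87 and 44.4 CPM (median 27.8) against between 7.35 and 28.2 CPM (median 23.5), and did not pass (log2 fold change 0.46, adjusted p = 0.448).

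A few genes for signalling below these receptors were higher. Of 47 genes for proximal signalling, 6 were higher and 2 lower, with a median of 0.15. Lck, a SRC family kinase, rose by 0.64 (adjusted p = 0.0185), with every Ly49C/I+ library above every uneducated one. Nfatc2, a calcium-driven transcription factor, rose by 0.76 (adjusted p = 0.0132). Inpp5d, the inhibitory lipid phosphatase SHIP1, rose by 0.58 (adjusted p = 0.0245), a call lost without Ly49C/I+ 1, 2, 5 or 7. Sh2d1b2, an adaptor of SLAM family receptors, fell by 1.07 (adjusted p = 0.0245), a call lost without Ly49C/I+ 7. The number of higher genes was 2 without Ly49C/I+ 1, 2 or 7, 3 without uneducated 1, 3 or 4 or Ly49C/I+ 5 and 11 without uneducated 5, and of lower genes 0 without Ly49C/I+ 7 and 1 without uneducated 1, 2, 3 or 4 or Ly49C/I+ 1, 2, 4 or 8. Of 38 immediate early genes, which NK cells and other cells induce within minutes of a stimulus, 10 were higher and none lower (1 without uneducated 6 or Ly49C/I+ 2), with a median of 0.30. Junb, a subunit of the AP-1 factor, lay between 3882 and 6156 CPM (median 4180.4) in Ly49C/I+ libraries and between 2047 and 3772 CPM (median 2919) in uneducated libraries (log2 fold change 0.62 ± 0.14, adjusted p = 0.0118). Tnfaip3, the NF-kappaB inhibitor A20, lay between 1780.1 and 2099.8 CPM (median 1925) in Ly49C/I+ libraries and between 940.4 and 1714 CPM (median 1186) in uneducated libraries (log2 fold change 0.64 ± 0.11, adjusted p = 0.00234). Both genes were higher in all 6 Ly49C/I+ libraries than in any uneducated one. Ier5 rose by 0.66 (adjusted p = 0.0105) and Dusp1, a phosphatase of MAP kinases, rose by 0.59 (adjusted p = 0.0134). The number of higher genes was 5 without Ly49C/I+ 5 or 7 and 16 without uneducated 5.

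Cytokine receptors and their signalling chain were among the groups with most increases. Of 39 genes tested, 12 were higher and 2 lower, with a median log2 fold change of 0.42. Stat4, the transcription factor downstream of IL-12, lay between 124 and 147 CPM (median 138) in Ly49C/I+ libraries and between 64.2 and 111 CPM (median 93.3) in uneducated libraries (log2 fold change 0.64 ± 0.13, adjusted p = 0.00573). The libraries did not overlap. Stat2, the interferon signal transducer, rose by 0.64 (adjusted p = 0.00683), and Socs3, a feedback inhibitor of cytokine signalling, rose by 0.71 (adjusted p = 0.00629). The receptor genes Il4ra, Il10ra, Il18rap, Il27ra and Ifnar1 rose by 0.77, 0.58, 0.83, 0.51 and 0.48, genes chosen here after their values were seen. Il21r, the IL-21 receptor, rose by 0.74 (adjusted p = 0.0231), a call lost without Ly49C/I+ 5 or 7. Il2ra, the high-affinity IL-2 receptor chain CD25, lay between 10.9 and 30.1 CPM (median 16.3) in Ly49C/I+ libraries and between 22.8 and 99.6 CPM (median 49.5) in uneducated libraries (log2 fold change -1.50 ± 0.31, adjusted p = 0.00713). The highest Ly49C/I+ library overlapped the lowest uneducated library, and all 6 were below the uneducated median. Socs2 fell by 0.92 (adjusted p = 0.0383), a call lost without uneducated 2, 3, 4, 7 or 8 or Ly49C/I+ 1, 2, 5, 7 or 8. Higher genes numbered 5 without Ly49C/I+ 5 or 7, and lower genes 1 without uneducated 2, 3, 4, 7 or 8 or Ly49C/I+ 1, 2, 5, 7 or 8.

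Secreted signals of NK cells changed in a few genes. Of 16 cytokine and chemokine genes tested, 4 were higher and 1 lower, against 4.5% and 4.7% of all genes tested. Xcl1, the chemokine that draws cross-presenting dendritic cells, lay between 1110.4 and 1905 CPM (median 1417) in Ly49C/I+ libraries and between 305 and 869.7 CPM (median 750.2) in uneducated libraries (log2 fold change 1.11 ± 0.20, adjusted p = 0.00366). The libraries did not overlap. Flt3l, the growth factor of dendritic cell precursors, lay between 40.0 and 98.6 CPM (median 43.0) in Ly49C/I+ libraries and between 15.5 and 36.8 CPM (median 20.9) in uneducated libraries (log2 fold change 1.17 ± 0.23, adjusted p = 0.00488). Here too every Ly49C/I+ library was above every uneducated one. Ccl9, a chemokine for myeloid cells, rose by 1.78 (adjusted p = 0.0292), a call lost without uneducated 1, 2 or 8 or Ly49C/I+ 1, 5 or 7. Mif, a macrophage cytokine, fell by 0.70 (adjusted p = 0.0377), a call lost without uneducated 1, 3 or 4 or Ly49C/I+ 1, 4, 5, 7 or 8. Higher genes numbered 2 without uneducated 1, 2 or 8 or Ly49C/I+ 5 or 7. Ifng, the main cytokine of NK cells, lay between 41.0 and 109.6 CPM (median 75.2) against between 54.1 and 89.0 CPM (median 64.4), and Ccl5, a chemokine kept ready in NK cells, between 1016 and 2116 CPM (median 1447) against between 784 and 1661 CPM (median 903). Neither passed (Ifng log2 fold change 0.14, adjusted p = 0.671; Ccl5 0.41, adjusted p = 0.187). Il15, a survival factor of NK cells, was not tested, with between 3.60 and 17.0 CPM (median 6.02) against between 0.327 and 9.17 CPM (median 4.02). In the list of uterine growth and vascular factors only 6 of 26 genes were tested, and 1 was lower. Without uneducated 5, 1 was higher. Spp1, the secreted matrix protein osteopontin, lay between 2293 and 3840.1 CPM (median 2693) in Ly49C/I+ libraries and between 4576 and 11012 CPM (median 6773) in uneducated libraries (log2 fold change -1.36 ± 0.18, adjusted p = 0.000553). All 6 Ly49C/I+ libraries were below all 9 uneducated ones.

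Granule proteins made up 1 of the larger decreases. Of 28 granzyme, perforin and granule genes tested, 9 were lower and 2 higher. The median was -0.14, and 11 of the 28 had a positive log2 fold change. Gzmd, Gzme, Gzmf and Gzmg are neighbouring granzyme genes that uNK cells use far more than NK cells of the spleen. Gzmg, the one with the largest change, lay between 76.0 and 731 CPM (median 271) in Ly49C/I+ libraries and between 760.3 and 3503 CPM (median 1993) in uneducated libraries (log2 fold change -2.71 ± 0.46, adjusted p = 0.00207). Gzmd lay between 424 and 1436 CPM (median 648) in Ly49C/I+ libraries and between 1297 and 5315 CPM (median 2954) in uneducated libraries (log2 fold change -2.09 ± 0.32, adjusted p = 0.00109). Gzme lay between 239.8 and 783 CPM (median 363) in Ly49C/I+ libraries and between 813 and 3251 CPM (median 1781) in uneducated libraries (log2 fold change -2.10 ± 0.32, adjusted p = 0.00109). Gzmf lay between 349.6 and 805 CPM (median 454) in Ly49C/I+ libraries and between 736 and 3096 CPM (median 1591) in uneducated libraries (log2 fold change -1.83 ± 0.28, adjusted p = 0.00109). The libraries did not overlap for Gzmg and Gzme, and for Gzmd and Gzmf they overlapped only at the ends. These genes share sequence with each other (19.8% of the 50-base stretches of Gzmg), so how the decrease is split between them is uncertain. Prf1, the pore-forming protein perforin, fell by 0.70 (adjusted p = 0.00629), and Gzmb, the main cytotoxic granzyme, fell by 0.57 (adjusted p = 0.01). The number of lower genes stayed between 9 and 10 when single libraries were left out, while the number of higher genes, Ctsw and Serpinb9, was 1 without Ly49C/I+ 1 or 7.

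Genes that mark stages of NK cell maturation and tissue residency went both ways. Of 24 genes of terminal maturation, 3 were higher and 4 lower, the latter including Prf1, Gzmb and Fcgr3. Ly6c2, a surface antigen of mature NK cells, rose by 0.99 (adjusted p = 0.015). Of 17 genes of immature NK cells, 3 were higher and 2 lower, and Lef1, a WNT pathway factor, fell by 0.96 (adjusted p = 0.00925). Of 19 genes of tissue residency and ILC1, 2 were higher and 1 lower. Ltb4r1, a leukotriene receptor, fell by 2.51 (adjusted p = 0.021), a call lost without Ly49C/I+ 7. It lay between 0 and 9.74 CPM in Ly49C/I+ and between 11.7 and 44.3 CPM in uneducated libraries. The gene could therefore pass the filter through the uneducated group alone. Osgin1, a stress response gene, rose by 0.81 (adjusted p = 0.0424), a call lost without uneducated 1, 2, 3, 4, 6, 8 or 9 or Ly49C/I+ 4, 5, 7 or 8. Among 40 transcription factors of the NK lineage, 5 were higher and 1 lower. Over all genes tested 4.5% were higher and 4.7% lower, shares at which lists of this size also hold a small number of calls. Irf1, an interferon-induced transcription factor, lay between 244 and 308 CPM (median 271) in Ly49C/I+ libraries and between 102 and 222 CPM (median 177) in uneducated libraries (log2 fold change 0.69 ± 0.14, adjusted p = 0.0067). Its libraries did not overlap. Ets1 rose by 0.46 (adjusted p = 0.0189) and Nfe2l2, the regulator NRF2 of oxidative stress genes, rose by 0.65 (adjusted p = 0.0231), a call lost without Ly49C/I+ 4, 5, 7 or 8. Counts moved past 1.5 times without single libraries. For higher genes they were 1 without uneducated 1, 2, 3, 4 or 8 or Ly49C/I+ 1, 4, 7 or 8 in terminal maturation, 0 without Ly49C/I+ 5 or 7 and 1 without uneducated 1, 2, 3, 4, 6, 8 or 9 or Ly49C/I+ 4 or 8 in tissue residency, and 2 without Ly49C/I+ 4, 5, 7 or 8 and 3 without uneducated 1, 2, 3, 4 or 8 or Ly49C/I+ 1 among transcription factors. For lower genes they were 1 without uneducated 2, 3, 4, 7 or 8 or Ly49C/I+ 2, 5, 7 or 8 in immature cells, 2 without uneducated 1 in tissue residency, and 2 without uneducated 7 or Ly49C/I+ 1, 2 or 5 and 3 without uneducated 6 among transcription factors.

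Interferon-stimulated genes were the list with the largest number of increases. Type I interferon signals through a complex that includes STAT2 and IRF9 and binds the interferon-stimulated response element upstream of target genes. Of 43 such genes tested, 18 were higher and 2 lower, with a median log2 fold change of 0.58 against 0.01 over all genes. Irf7, the factor that amplifies interferon production, lay between 215 and 352 CPM (median 241) in Ly49C/I+ libraries and between 79.8 and 174 CPM (median 115) in uneducated libraries (log2 fold change 1.10 ± 0.16, adjusted p = 0.000932). Ifi27l2a, an interferon-induced protein of the mitochondrial and nuclear membrane, lay between 30.6 and 68.2 CPM (median 38.8) in Ly49C/I+ libraries and between 14.6 and 23.1 CPM (median 18.5) in uneducated libraries (log2 fold change 1.18 ± 0.19, adjusted p = 0.00115). For both, no Ly49C/I+ library overlapped the uneducated range. Isg15, a ubiquitin-like modifier, rose by 0.87 (adjusted p = 0.0101), Oas3, a sensor of double-stranded RNA, rose by 0.94 (adjusted p = 0.00748), and Zbp1, a sensor of left-handed nucleic acid, rose by 0.74 (adjusted p = 0.00713), these 3 chosen after their values were seen. Irf9, a transducer of the pathway, rose by 0.68 (adjusted p = 0.0377). Against this direction stood the 2 antiviral membrane proteins Ifitm1 and Ifitm2. Ifitm1 lay between 8.09 and 48.2 CPM (median 20.0) in Ly49C/I+ libraries and between 71.2 and 325 CPM (median 129) in uneducated libraries (log2 fold change -2.87 ± 0.41, adjusted p = 0.000799). Ifitm2 lay between 9.83 and 37.5 CPM (median 15.2) in Ly49C/I+ libraries and between 29.6 and 99.2 CPM (median 55.1) in uneducated libraries (log2 fold change -1.83 ± 0.31, adjusted p = 0.00212). For Ifitm1 all 6 Ly49C/I+ libraries were below all uneducated ones, and for Ifitm2 they overlapped only at the ends. Ifitm2 shares 48.5% of its 50-base stretches with other genes, and 40.9% of its exonic bases lie under Gm45717 on the same strand, so its level is uncertain. Higher genes numbered 9 without uneducated 1, 3 or 4 or Ly49C/I+ 7 and 11 without uneducated 2 or 8 or Ly49C/I+ 2, 4 or 8.

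The promoters of this list were searched for the response element, GAAA and a second GAAA with any 2 bases between them, on both strands of 250 bases before and 50 bases after the start of each gene in RefSeq (build GRCm38.p6). It was in 23 of the 35 members with a window (65.7%), against 1079 of 27025 windows of all genes (3.99%). By call, it was in 7 of 13 higher, in 1 of 2 lower and in 13 of 18 uncalled members. The windows of Oas3 and Stat2, which rose, and of Ifitm2, which fell and holds the same element, are shown 5′ to 3′ with the match in capitals. They are chr5:120777610-120777909, minus strand, chr10:128270248-128270547, plus strand and chr7:140955912-140956211, minus strand. In Stat2 the match is on the opposite strand and so reads in reverse complement.
Oas3: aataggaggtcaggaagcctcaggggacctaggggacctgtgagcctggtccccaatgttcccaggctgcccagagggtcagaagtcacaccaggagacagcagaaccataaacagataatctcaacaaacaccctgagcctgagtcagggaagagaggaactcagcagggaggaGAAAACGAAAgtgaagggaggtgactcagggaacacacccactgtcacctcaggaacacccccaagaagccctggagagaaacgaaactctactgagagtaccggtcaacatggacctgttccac
Stat2: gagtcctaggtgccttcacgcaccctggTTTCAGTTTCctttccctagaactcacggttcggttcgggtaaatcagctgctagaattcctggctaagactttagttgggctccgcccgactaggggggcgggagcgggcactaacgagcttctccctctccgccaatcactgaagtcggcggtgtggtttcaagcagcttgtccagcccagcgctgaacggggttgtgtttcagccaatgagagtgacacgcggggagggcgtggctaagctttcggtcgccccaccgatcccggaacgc
Ifitm2: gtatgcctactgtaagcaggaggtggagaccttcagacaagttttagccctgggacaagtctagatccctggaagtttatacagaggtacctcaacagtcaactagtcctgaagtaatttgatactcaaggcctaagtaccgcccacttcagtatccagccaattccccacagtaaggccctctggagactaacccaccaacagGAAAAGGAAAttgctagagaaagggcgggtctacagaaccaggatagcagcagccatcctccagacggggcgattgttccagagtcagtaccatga

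MHC class I genes were higher or did not pass. Of 18 genes of MHC class I and antigen processing, all tested, 9 were higher and none lower, with a median of 0.36. Nlrc5, the transactivator of MHC class I genes, lay between 77.9 and 197 CPM (median 113) in Ly49C/I+ libraries and between 40.2 and 73.7 CPM (median 48.9) in uneducated libraries (log2 fold change 1.20 ± 0.18, adjusted p = 0.00109). H2-T23, which encodes Qa-1, the molecule that CD94/NKG2A binds, lay between 537 and 698 CPM (median 575) in Ly49C/I+ libraries and between 356 and 517 CPM (median 416) in uneducated libraries (log2 fold change 0.44 ± 0.088, adjusted p = 0.00599). The Qa-2 genes H2-Q6 and H2-Q7 rose, the first by 0.82 (adjusted p = 0.00185) and the second by 0.69 (adjusted p = 0.00212), and they share sequence with each other. For each of these 4 genes all Ly49C/I+ libraries were above all uneducated ones. H2-K1 and H2-D1, the classical class I genes, rose, the first by 0.41 (adjusted p = 0.0156) and the second by 0.31 (adjusted p = 0.0356), genes chosen after their values were seen. The mean level over the 18 genes was above every uneducated library in all 6 Ly49C/I+ libraries. Higher genes numbered 5 without Ly49C/I+ 7.

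**Figure D3:**
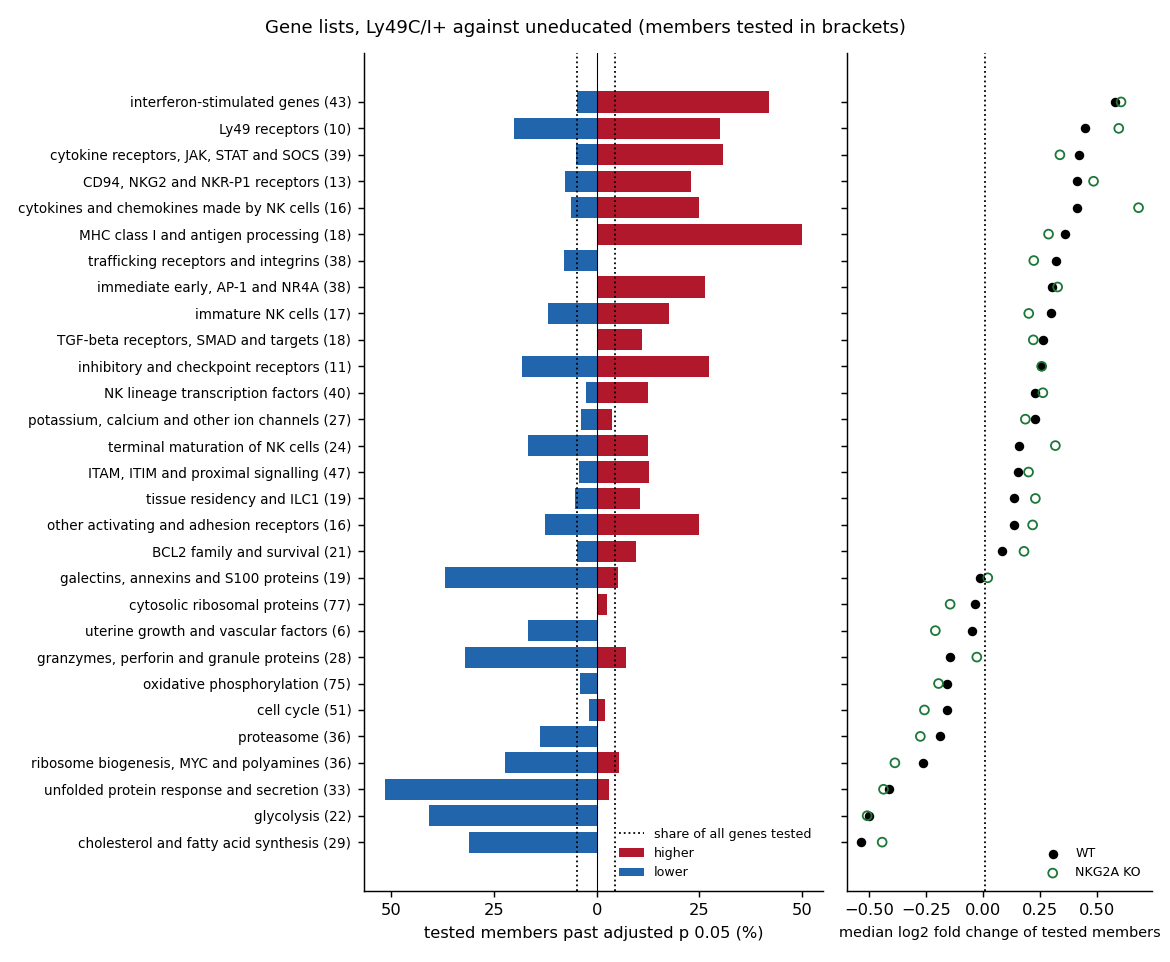
Left, share of the tested members of each gene list that were higher or lower in Ly49C/I+ WT cells at an adjusted p of 0.05, with dotted lines for all genes tested (4.5% and 4.7%), and right, the median log2 fold change of the list in WT and in NKG2A KO mice. MHC class I (9 of 18) and interferon-stimulated genes (18 of 43) have the largest shares of higher members, and the unfolded protein response (17 of 33), glycolysis (9 of 22), galectins, annexins and S100 proteins (7 of 19), granule proteins (9 of 28) and cholesterol synthesis (9 of 29) the largest shares of lower members.

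Among genes of protein folding in the endoplasmic reticulum, 17 of 33 fell. The unfolded protein response senses misfolded protein there and induces chaperones, protein disulphide isomerases and parts of the translocation channel through ATF6, XBP1 and ATF4. Of 33 genes of this list tested, 17 were lower and 1 higher, and 15 did not pass, with a median of -0.41, and single left-out libraries gave between 14 and 19 lower genes. Pdia6, a protein disulphide isomerase, lay between 607 and 840.2 CPM (median 703) in Ly49C/I+ libraries and between 887 and 1635 CPM (median 1188) in uneducated libraries (log2 fold change -0.78 ± 0.14, adjusted p = 0.0032). Calr, the chaperone calreticulin, lay between 712 and 950.5 CPM (median 843) in Ly49C/I+ libraries and between 986 and 1969 CPM (median 1376) in uneducated libraries (log2 fold change -0.75 ± 0.14, adjusted p = 0.00357). Manf, a secreted chaperone cofactor, fell by 0.81 (adjusted p = 0.00326), and Creld2, a chaperone of the same programme, fell by 0.80 (adjusted p = 0.00324). All 4 genes were lower in every Ly49C/I+ library than in any uneducated library. Hsp90b1, the chaperone GRP94, fell by 0.67 (adjusted p = 0.0048), and Asns, asparagine synthetase and a target of ATF4, fell by 1.63 (adjusted p = 0.0158), both chosen after their values were seen. The 1 higher member was Atf4 itself (0.36, adjusted p = 0.0164), and the number of higher genes was 2 without uneducated 5 or Ly49C/I+ 4 or 8.

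The endoplasmic reticulum stress element, CCAAT and CCACG with any 9 bases between them, was searched for in the same windows on both strands. It was in 7 of the 30 members with a window (23.3%) and in 37 of all 27025 windows (0.137%). It was in 6 of 15 lower members, in 1 of 12 uncalled members and not in the higher one. Pdia6 (chr12:17266339-17266638, plus strand) and Hsp90b1 (chr10:86705395-86705694, minus strand) are shown as genes that fell, the first with 1 match and the second with 2, with the element in capitals.
Pdia6: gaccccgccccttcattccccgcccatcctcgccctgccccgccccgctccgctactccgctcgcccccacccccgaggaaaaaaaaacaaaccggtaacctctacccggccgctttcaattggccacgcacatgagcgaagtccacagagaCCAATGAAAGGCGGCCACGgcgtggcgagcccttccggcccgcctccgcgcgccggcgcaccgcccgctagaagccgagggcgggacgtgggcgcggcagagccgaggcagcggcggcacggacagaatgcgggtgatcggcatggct
Hsp90b1: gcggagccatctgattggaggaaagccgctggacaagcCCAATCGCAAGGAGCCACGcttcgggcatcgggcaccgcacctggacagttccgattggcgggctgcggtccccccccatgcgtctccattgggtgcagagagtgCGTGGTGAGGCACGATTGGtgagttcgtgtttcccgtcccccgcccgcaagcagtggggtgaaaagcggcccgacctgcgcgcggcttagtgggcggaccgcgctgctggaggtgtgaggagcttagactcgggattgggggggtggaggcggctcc

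Some metabolic genes fell as well. Of 22 glycolysis genes tested, 9 were lower and none higher, and all had a negative log2 fold change, with a median of -0.50. Aldoa, the enzyme aldolase, lay between 679 and 829.5 CPM (median 805) in Ly49C/I+ libraries and between 862 and 1333 CPM (median 1115) in uneducated libraries (log2 fold change -0.52 ± 0.10, adjusted p = 0.00444). Gpi1, the isomerase of glucose phosphate, fell by 0.39 (adjusted p = 0.0042), and for both genes the libraries did not overlap. Gapdh fell by 0.55 (adjusted p = 0.00815) and Eno1, enolase, fell by 0.56 (adjusted p = 0.00925). Slc16a3, a lactate exporter, fell by 1.28 (adjusted p = 0.031), chosen after its value was seen. The number of lower genes was 5 without Ly49C/I+ 7. Of 29 genes of cholesterol and fatty acid synthesis, which SREBP factors control, 9 were lower and none higher, with a median of -0.54. Hmgcs1, which makes the precursor of mevalonate, lay between 53.0 and 89.4 CPM (median 70.7) in Ly49C/I+ libraries and between 103 and 223 CPM (median 143) in uneducated libraries (log2 fold change -1.09 ± 0.19, adjusted p = 0.00229). Cyp51, a demethylase of lanosterol, lay between 77.9 and 119 CPM (median 100.2) in Ly49C/I+ libraries and between 123 and 216 CPM (median 189) in uneducated libraries (log2 fold change -0.87 ± 0.13, adjusted p = 0.00104). Scd2, a fatty acid desaturase, fell by 1.11 (adjusted p = 0.00576), and Msmo1, a sterol oxidase, fell by 1.03 (adjusted p = 0.00599). No library overlapped for Hmgcs1, Cyp51 and Scd2. The number of lower genes was 5 without uneducated 3 or 4 or Ly49C/I+ 5 or 8. The sterol regulatory element TCACCCCAC was in the window of 1 of the 21 members that had one (4.76%), Hmgcs1, and in 166 of all 27025 windows (0.614%). That window (chr13:119690101-119690400, plus strand) reads 5′ to 3′ as follows, with the element in capitals.
Hmgcs1: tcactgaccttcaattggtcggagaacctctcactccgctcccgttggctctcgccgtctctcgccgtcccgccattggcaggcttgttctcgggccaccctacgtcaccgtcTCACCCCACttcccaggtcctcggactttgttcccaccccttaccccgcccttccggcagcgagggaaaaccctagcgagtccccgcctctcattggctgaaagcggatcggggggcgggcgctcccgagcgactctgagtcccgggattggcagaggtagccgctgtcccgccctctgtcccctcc

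Genes for making and degrading protein were lower in part. Of 36 genes of ribosome biogenesis, MYC and polyamines, 8 were lower and 2 higher, with a median of -0.26. Dkc1, the pseudouridine synthase dyskerin, lay between 82.7 and 117 CPM (median 100.2) in Ly49C/I+ libraries and between 135 and 222 CPM (median 188) in uneducated libraries (log2 fold change -0.86 ± 0.12, adjusted p = 0.000799). Npm1, the nucleolar chaperone nucleophosmin, fell by 0.44 (adjusted p = 0.0134), and Nop16, a nucleolar protein, fell by 0.60 (adjusted p = 0.0149). The call of Npm1 was lost with offsets for GC content and length. Mxd1, an antagonist of MYC, rose by 0.80 (adjusted p = 0.00391). Lower genes were 4 without Ly49C/I+ 7 and 5 without uneducated 2 or Ly49C/I+ 8, and higher genes 1 without uneducated 1, 3 or 4 or Ly49C/I+ 2, 5 or 7. Of 36 proteasome genes, 5 were lower and none higher, with a median of -0.19. Psmd7 fell by 0.47 (adjusted p = 0.0139), Psma1 fell by 0.41 (adjusted p = 0.0185), Psma5 fell by 0.50 (adjusted p = 0.0287) and Psmb2 fell by 0.36 (adjusted p = 0.0351). The last pair lost their calls without single libraries, Psma5 without uneducated 3 or 4 or Ly49C/I+ 5 or 7 and Psmb2 without uneducated 1, 3 or 4 or Ly49C/I+ 4, 5, 7 or 8. The number of lower proteasome genes was 2 without uneducated 3 or 4 or Ly49C/I+ 5 or 7, 3 without uneducated 1 or Ly49C/I+ 4, 9 without uneducated 6 and 10 without uneducated 5. It was 1 with offsets for GC content and length, which ended the calls of Psma1, Psma5 and Psmb2, and 15 with all groups in 1 fit. Without uneducated 4 or 5 there was 1 higher gene.

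In oxidative phosphorylation 3 of 75 genes were lower and none higher, a share under that of all genes. The median log2 fold change of this list was -0.156 against 0.01 over all genes, and 14 of the 75 had a positive value. Cox5a fell by 0.47 (adjusted p = 0.031), Sdhd fell by 0.39 (adjusted p = 0.0356) and Atp5j fell by 0.50 (adjusted p = 0.0377), all subunits of the respiratory chain or ATP synthase. These calls were lost without uneducated 3 or 4 or Ly49C/I+ 1, 2, 4, 5 or 7 for Cox5a, without uneducated 1, 2, 3, 4 or 8 or Ly49C/I+ 2, 5 or 7 for Sdhd, and without uneducated 3 or 4 or Ly49C/I+ 1, 2, 4, 5, 7 or 8 for Atp5j. The number of lower genes was 0 without uneducated 3 or 4 or Ly49C/I+ 2, 5 or 7, 7 without uneducated 5, 11 without uneducated 6 and 18 with all groups in 1 fit. Offsets for GC content and length ended the calls of Cox5a and Sdhd. Of 77 cytosolic ribosomal protein genes 2 were higher, Rpl36 by 0.40 and Rps14 by 0.33, and none lower. Rpl36 lost its call without uneducated 1 or Ly49C/I+ 2, 5 or 7, and Rps14 without uneducated 1, 2, 6 or 8 or Ly49C/I+ 1, 2, 4, 5 or 7. Without uneducated 5 there were 4 higher and 2 lower genes, without uneducated 6 there were 1 and 3, and without uneducated 2 there was 1 of each. With offsets for GC content and length, 4 genes were higher, Rpl36 not among them, and 2 lower. Of 51 cell cycle genes 1 was higher and 1 lower, shares under those of all genes tested (4.5% and 4.7%). Nusap1, a spindle protein, rose by 0.47 (adjusted p = 0.0422), a call lost without uneducated 2, 3, 6, 7, 8 or 9 or Ly49C/I+ 1, 2, 4, 5 or 8. Cdk6, a kinase of the G1 phase, fell by 0.83 (adjusted p = 0.0205), a call lost without Ly49C/I+ 7.

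Galectins, annexins and S100 proteins were another list with decreases. Of 19 galectins, annexins and S100 proteins, 7 were lower and 1 higher. The median was -0.011, and 8 of the 19 had a positive log2 fold change, so the list did not fall as a whole. Lgals3, the secreted lectin galectin-3, lay between 212 and 271 CPM (median 241) in Ly49C/I+ libraries and between 337 and 632 CPM (median 454) in uneducated libraries (log2 fold change -0.98 ± 0.14, adjusted p = 0.000799). Anxa5 fell by 0.77 (adjusted p = 0.00185) and Anxa7 fell by 0.53 (adjusted p = 0.01). The libraries did not overlap for Lgals3 and Anxa5. The other lists had fewer calls. In trafficking receptors and integrins 3 of 38 were lower and none higher, against 4.7% and 4.5% of all genes tested. Higher genes in this list numbered 3 without uneducated 6, 1 without uneducated 9 or Ly49C/I+ 2, 4 or 5, and 6 with all groups in 1 fit. Adgrg3, an adhesion receptor related to Adgrg1, fell by 1.36 (adjusted p = 0.0042), and Itgb3, the beta-3 integrin subunit, fell by 1.16 (adjusted p = 0.00595). Among 27 ion channel genes, Kcnj8 was the 1 higher and Aqp9, a channel for water and glycerol, the 1 lower gene. Both shares are under those of all genes tested (4.5% higher and 4.7% lower). Aqp9 had reads in 1 of the 6 Ly49C/I+ libraries, at 1.75 CPM, and in all 9 uneducated libraries, between 2.28 and 23.3 CPM (median 7.74), so it was tested through the uneducated group alone. In the list of BCL2 proteins and survival, Birc2, an inhibitor of cell death, rose by 0.65 (adjusted p = 0.0139), and Bcl2l11, the death activator BIM, rose by 0.50 (adjusted p = 0.019). Bcl2l11 lost its call without Ly49C/I+ 5. In the TGF-beta list Skil, a repressor of SMAD proteins, rose by 0.59 (adjusted p = 0.0108), and Smad7, an inhibitor of the same pathway, rose by 0.75 (adjusted p = 0.0374), a call lost without uneducated 1, 2, 3, 4 or 8 or Ly49C/I+ 2, 4, 5 or 7.

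**Figure D4:**
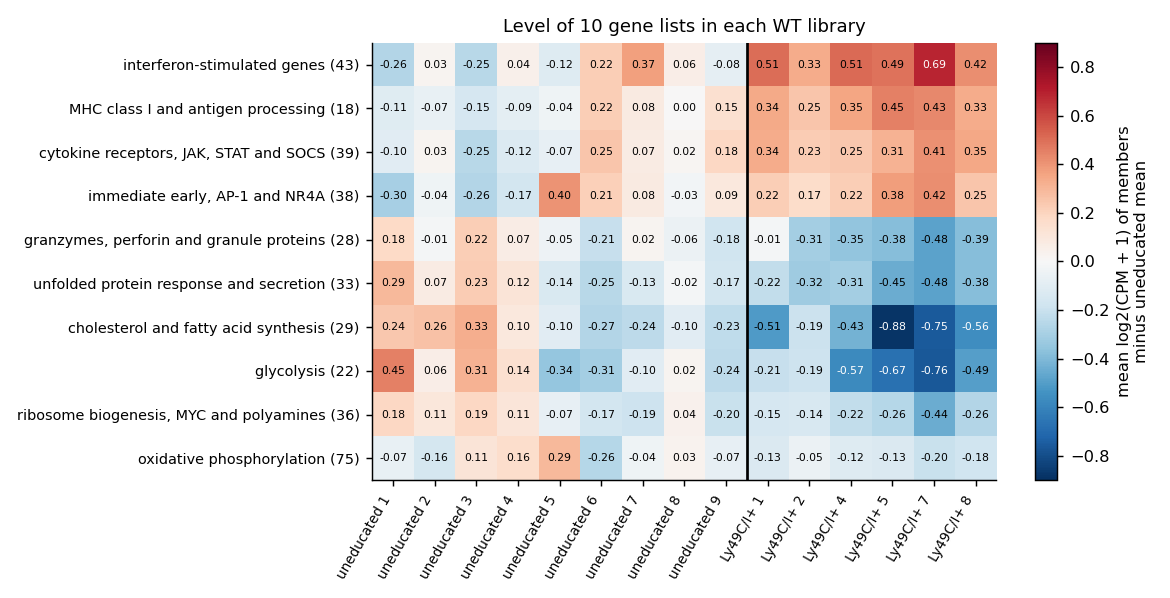
Mean log2(CPM + 1) of the tested members of 10 gene lists in each of the 15 WT libraries, as the difference from the mean of the 9 uneducated libraries. Interferon-stimulated genes lie between 0.33 and 0.69 in Ly49C/I+ and between -0.26 and 0.37 in uneducated libraries, and the uneducated libraries differ among themselves in most lists.

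The list levels of single libraries show how evenly the groups differed. For MHC class I, 6 of 6 Ly49C/I+ libraries were above every uneducated library. For interferon-stimulated genes 5 of 6 were above, and for the unfolded protein response and for cholesterol and fatty acid synthesis 5 of 6 were below every uneducated library. For glycolysis and for ribosome biogenesis this held for 4 of 6. The glycolysis level lay between -0.76 and -0.19 in Ly49C/I+ and between -0.34 and 0.45 in uneducated libraries, as a difference from the uneducated mean of log2(CPM + 1). For immediate early genes 1 of 6 was above, and the uneducated libraries alone ran from -0.30 to 0.40.

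Ly49C/I+ and uneducated cells were also sorted from NKG2A KO mice, with no library in common, to ask whether the difference also appears where NKG2A is missing. Both groups there can hold cells that the NKG2A gate removes in WT mice, so the comparisons are not fully alike. There, 9299 genes were tested, and 683 (7.34%) were higher and 836 (8.99%) lower in the 5 Ly49C/I+ libraries than in the 8 uneducated libraries. Of the 851 WT calls tested in both, 521 (61.2%) were also called in NKG2A KO mice, which is 34.6% of the 1507 calls there, and all 521 had the same direction. The sign was shared by 97.4% of the WT calls and by 73.4% of all 9128 genes tested in both. As a description across genes, which are not independent, the log2 fold changes correlated with r = 0.70 (Pearson) and rho = 0.63 (Spearman). The share of reads given to no gene ranged from 3.94% to 5.26% in Ly49C/I+ and from 2.69% to 5.67% in uneducated NKG2A KO libraries. Its mean was 4.47% in Ly49C/I+ and 3.53% in uneducated NKG2A KO libraries, so it was higher on average in Ly49C/I+ libraries here too. No Ly49C/I+ library was above all uneducated ones, but this rests on uneducated KO library 4 at 5.67%. The next highest uneducated KO library was at 4.08%. With this share as a covariate, 178 genes were higher and 302 lower in NKG2A KO mice. Without Ly49C/I+ KO library 4, 967 genes passed in place of 1519.

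By gene, the sorted receptors and the channel gene had the same sign in the NKG2A KO mice. The log2 fold change there was 3.45 (adjusted p = 1.99e-10) for Klra9, -0.64 (adjusted p = 0.00291) for Klra3, 0.73 (adjusted p = 0.00293) for Klrc2 and 2.14 (adjusted p = 3.06e-05) for Kcnj8. It was 0.91 (adjusted p = 0.00302) for Xcl1, -1.14 (adjusted p = 0.00333) for Spp1, -3.37 (adjusted p = 0.00218) for Gzmg and -2.88 (adjusted p = 0.00604) for Havcr2. Interferon-stimulated genes were higher in 29 and lower in 3 of 44, and MHC class I genes higher in 8 of 18. Irf7 had 0.71 (adjusted p = 0.00445) and Nlrc5 1.06 (adjusted p = 0.00524). Lower calls numbered 20 of 33 in the unfolded protein response, 12 of 23 in glycolysis and 11 of 28 in cholesterol and fatty acid synthesis. Some lists had more lower calls there, with 19 of 36 proteasome, 20 of 75 oxidative phosphorylation, 14 of 51 cell cycle and 13 of 77 ribosomal protein genes. Neat1, Itpkb and Socs3, called in WT mice, had 0.68 (adjusted p = 0.194), 0.45 (adjusted p = 0.216) and 0.13 (adjusted p = 0.643) there. An interaction term over 28 libraries tested whether the WT and NKG2A KO effects differed. It passed for 0 of 9322 genes (0%) in the quasi-likelihood test of edgeR, with 407 at an unadjusted p under 0.05. edgeR's likelihood ratio test called 1 gene (412 unadjusted) and DESeq2 called 1 (449 unadjusted), Elmod2, with a difference of -2.26 (adjusted p = 0.0499). A change in 1 genotype that was not called in the other is therefore not shown to differ between them.

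**Figure D5:**
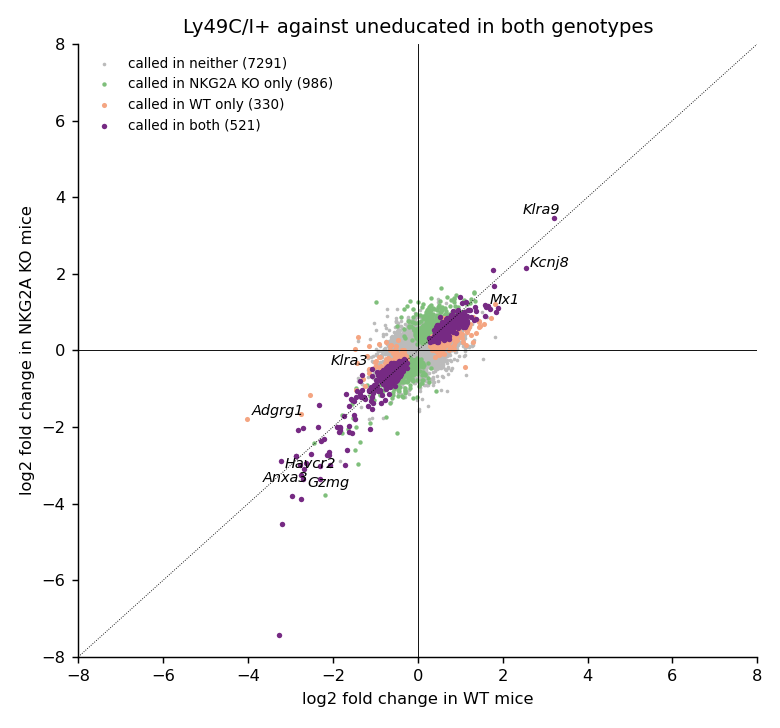
Log2 fold change of Ly49C/I+ against uneducated cells in WT (horizontal axis) and in NKG2A KO mice (vertical axis) for the 9128 genes tested in both, coloured by call. The 521 genes called in both have the same sign on both axes, and 330 were called in WT mice alone and 986 in NKG2A KO mice alone.

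Ly49C/I+ and NKG2A+ cells of WT mice were also compared directly, to find which differences set the 2 educated populations apart. Of 9308 genes tested, 122 (1.31%) were higher and 132 (1.42%) lower in NKG2A+ than in Ly49C/I+ cells. Of the 418 genes higher in Ly49C/I+ than in uneducated cells, 43 were also above NKG2A+ cells and 6 below them. Of the 437 lower genes, 420 were tested, with 21 below and 2 above NKG2A+ cells. The same Ly49C/I+ libraries picked these genes and entered the direct test, so the balance of these counts is partly built in. With offsets for GC content and length, 48 genes were higher and 80 lower in NKG2A+ cells. The count of 254 fell to 168 without NKG2A+ 2, 163 without NKG2A+ 8, 154 without Ly49C/I+ 2, 155 without Ly49C/I+ 5 and 147 without Ly49C/I+ 7. The log2 difference of NKG2A+ minus Ly49C/I+ cells was -2.61 in Klra9 (adjusted p = 9.08e-13) and 1.59 in Klra3 (adjusted p = 0.000284). It was -0.83 (adjusted p = 0.00968) in Klrc2, -1.03 (adjusted p = 0.00708) in Neat1, -0.93 (adjusted p = 0.00708) in Itpkb, -1.02 (adjusted p = 0.0168) in Lilrb4a and -0.59 (adjusted p = 0.023) in Il21r, each lower in NKG2A+ cells. It was 1.93 (adjusted p = 0.00444) in Cd226, 0.73 (adjusted p = 0.0168) in Ccl5, 0.73 (adjusted p = 0.0267) in Ifng, 0.98 (adjusted p = 0.0173) in Lef1 and 0.38 (adjusted p = 0.00389) in Ncr1, each higher in NKG2A+ cells. Kcnj8 had a difference of -0.093 (adjusted p = 0.885), with a standard error of 0.24. No interferon-stimulated, MHC class I, glycolysis, cholesterol or unfolded protein response gene passed the test between the educated populations. These lists of 18 to 44 tested genes hold few calls at the shares of all genes, so this does not show equal levels. Of 77 ribosomal protein genes, 18 were lower in NKG2A+ cells.

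Both comparisons with uneducated cells use the same 9 uneducated libraries, so their values are given side by side only. NKG2A+ cells had log2 fold changes against them of 2.45 (adjusted p = 0.00138) in Kcnj8, 0.85 (adjusted p = 0.00249) in Xcl1 and 0.93 (adjusted p = 8.95e-05) in Irf7, where Ly49C/I+ cells had 2.54, 1.11 and 1.10. The values were -2.46 (adjusted p = 3.11e-05) in Gzmg, -1.41 (adjusted p = 2.58e-06) in Spp1 and -2.30 (adjusted p = 0.00594) in Havcr2, where Ly49C/I+ cells had -2.71, -1.36 and -3.23. In Cd226 they were 2.39 (adjusted p = 2.77e-06) in NKG2A+ and 0.46 in Ly49C/I+ cells.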

How the data were processed

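Total RNA of sorted uNK cells was amplified with a SMART-Seq kit, and libraries were prepared with Nextera XT. Per the submitters' processing notes and the study's methods, reads were checked with FastQC 0.11.4, trimmed with Trim Galore 0.5.0 and mapped with STAR 2.7.1 to GRCm38, and the authors tested genes with edgeR 3.26.5 in R 3.6.1. The authors deposited 1 table of raw, unscaled read counts a library, with 53700 Ensembl genes in each. The sources used here name neither the counting program nor its strand setting. Library sizes and tests leave out the 5 summary lines that name no gene, and the share of reads given to no gene is in the results.

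From these counts, CPM were computed on TMM-scaled library sizes. A gene was tested where 0.5 or more of the compared libraries reached 5 CPM, by the quasi-likelihood test of edgeR 4.0.16 in R 4.3.3 with Benjamini-Hochberg adjustment at 0.05, on the groups compared only and with no replicate block. The effect in WT and in NKG2A KO mice was compared by an interaction term. Library measures were compared by exact two-sided permutation tests. Results were recomputed with DESeq2 1.42.0, the likelihood ratio test, RLE scaling, other filters, a replicate block, a common fit of all 5 groups, each library removed in turn, and offsets for GC content and length. The offsets were splines of 5 degrees of freedom and stand in for CQN. Scripts were tested on simulated counts. Symbols came from GENCODE M21 for 52093 genes, and promoter windows from RefSeq. Reads without molecular identifiers are not independent molecules.

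The members and gene lists were chosen with earlier results of these data known. Named genes are the 12 largest increases and 12 largest decreases without overlap and with a mean of at least 20 CPM, the 4 largest increases that only a filter of 5 CPM in 6 libraries adds, up to 4 called genes of each list by p (or the 2 members with the highest mean where none was called), and the genes the study names for uNK cells and the sort. A few genes are not reported here.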

Additional observations from a re-analysis of the deposited data

Results flagged for a closer look

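Highest or lowest libraries were examined in 258 groups of 6 or 9 libraries, those of the levels of the 126 named genes and of 3 library measures. In 24 of them the gap between the end library and its neighbour, over the whole range of the group, passed Dixon's 95% limit (0.625 for 6 libraries, 0.493 for 9). Chance alone gives about 1 in 20. Below, the value of the end library is followed by that of the next library.

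Uneducated 5 had the fewest genes with a count, 13990 against 15570. It was the highest of its group in Fam178b (73.2 against 33.0 CPM), Mif (635.9 against 358 CPM), Osgin1 (360.4 against 207 CPM), Cox5a (325 against 245 CPM) and Atp5j (676 against 437 CPM). Uneducated 9 was the highest in Kcnj8 (18.1 against 6.82 CPM) and in Gm5547 (16.1 against 10.3 CPM). Uneducated 1 was the highest in Tmem119 (180.1 against 102 CPM) and in Klrc1 (13.8 against 5.91 CPM).

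Ly49C/I+ 2 was the lowest of its group in Klra9 (466 against 663 CPM) and still above every uneducated library. Ly49C/I+ 1 was the highest in Ifitm1 (48.2 against 22.6 CPM), Ifitm2 (37.5 against 18.7 CPM), Ifi27l2a (68.2 against 40.4 CPM), Cd300lf (41.8 against 27.2 CPM), Prf1 (2843 against 1953 CPM) and Aqp9 (1.75 against 0 CPM). Ly49C/I+ 4 was the highest in Il15 (17.0 against 8.41 CPM), Hs3st3b1 (20.2 against 12.5 CPM) and Spp1 (3840 against 2790 CPM). Ly49C/I+ 5 was the highest in Flt3l (98.6 against 56.4 CPM), Smad7 (139 against 89.6 CPM) and ENSMUSG00000119520 (13.4 against 8.69 CPM). Ly49C/I+ 7 was the highest in H2-T23 (698 against 595 CPM).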

How the results depend on the processing

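For Ly49C/I+ against uneducated WT cells, the 855 calls became 451 with no filter on low counts and 1528 with all groups in 1 fit. Leaving out each library in turn gave between 466 and 1227 calls. With the share of reads given to no gene as a covariate 3 genes passed, and leaving out both libraries numbered 5 gave 986, both fits added after the data were seen. The other settings gave between 723 and 1232 calls. In NKG2A KO mice the 1519 calls became 889 with no filter and 480 with the covariate, and between 967 and 1763 without single libraries. Between NKG2A+ and Ly49C/I+ cells the 254 calls became 442 in the likelihood ratio test, 558 in DESeq2, 104 with no filter (62 higher and 42 lower) and 128 with GC and length offsets, and between 147 and 306 without single libraries. For NKG2A+ against uneducated cells 1404 genes passed, between 1118 and 1687 without single libraries and 1701 in DESeq2. The difference between genotypes gave 1 call in DESeq2 and 0 without any single library. The difference in reads on genes ranged from -806600 to -369400, and the difference in the share given to no gene from 1.56 to 2.10 percentage points. The difference in genes with a count (79.1) was -216 without Ly49C/I+ 1, -317.6 without Ly49C/I+ 2 and -146.8 without uneducated 5, and reached 446.6 without Ly49C/I+ 5. With GC and length offsets, higher calls went from 10 to 6 in immediate early genes, 5 to 3 in NK transcription factors and 3 to 1 in terminal maturation, and with all groups in 1 fit from 6 to 13 in proximal signalling and 3 to 7 in CD94, NKG2 and NKR-P1 receptors, and lower calls from 9 to 14 in cholesterol synthesis. Of 124 named genes, 82 kept direction and side of the threshold under every alternative but the covariate. Ifng ranged from -0.017 without Ly49C/I+ 1 to 0.252 without Ly49C/I+ 5, a change of direction, and Sdhd reversed to 0.033 with the covariate. The cause was not tested.

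Libraries of the WT groups share replicate numbers. Those of the Ly49C/I+ libraries are from the descriptions, which differ from the titles for 4 of 6, and the description of uneducated 5 repeats the number 4. The deviations of same-numbered libraries had correlations between 0.072 and 0.198, 5 of 6 numbers exceeded 0.1, and 5 of 6 Ly49C/I+ libraries were closest to their own number. No label says what a number stands for, and pairs were taken only where every number exceeded 0.1, so the numbers were not used as pairs. The 855 calls therefore take no account of any shared source of same-numbered libraries. A replicate block gave 987 calls in the WT comparison, 691 of them shared with the 855, and 958 with GC and length offsets too. It ended the calls of Birc2, Mx1, Ccl9, Socs2, Nusap1, Rpl36 and Rps14, and with the offsets those of Tnfrsf9, Nfatc2, Stat2 and Anxa7, and it gave 10 higher genes of 38 in trafficking receptors and integrins. The block gave 759 in NKG2A KO mice (597 with the offsets), and 301 between NKG2A+ and Ly49C/I+ cells (143 with the offsets, 54 higher and 89 lower).

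The smallest differences are limited by 6 libraries in the Ly49C/I+ group and by reads that near-identical genes share, and levels under about 5 CPM were not tested. Of 125 named genes with transcripts, 19 shared over 20% of their 50-base stretches with other genes. Among them were Mif (50.9%), Psma5 (49.96%) and Rpl36 (81.1%), so their levels are uncertain.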

Other observations

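Gene segments of the T cell receptor beta locus were higher in Ly49C/I+ cells, a group chosen after its values were seen. NK cells carry no T cell receptor on their surface. Trbj1-1 lay between 62.4 and 77.5 CPM (median 71.7) in Ly49C/I+ and between 31.8 and 47.2 CPM (median 41.7) in uneducated libraries (log2 fold change 0.83 ± 0.12, adjusted p = 0.000799). Trbj1-2 lay between 34.1 and 44.5 CPM (median 41.6) in Ly49C/I+ and between 14.9 and 26.4 CPM (median 20.2) in uneducated libraries (log2 fold change 1.01 ± 0.15, adjusted p = 0.00104). Trbc1 lay between 366 and 489 CPM (median 463) in Ly49C/I+ and between 242 and 366 CPM (median 302) in uneducated libraries (log2 fold change 0.54 ± 0.10, adjusted p = 0.00438). Every Ly49C/I+ library was above every uneducated library in these 3 genes, in Trbc1 by a narrow margin. Trbd1 rose by 0.94 (adjusted p = 0.021), and Trbj1-5 rose by 1.21 (adjusted p = 0.0067). In the delta locus Trdv4 rose by 0.66 (adjusted p = 0.0139), while Trdc had a log2 fold change of 0.47 (adjusted p = 0.239). Trac, the constant segment of the alpha chain, lay between 22.0 and 53.3 CPM (median 34.8) and between 23.2 and 67.6 CPM (median 29.4), with a log2 fold change of 0.0062 (adjusted p = 0.99). Of 12 T cell markers 7 were tested, and Trbc1 and Trbc2 were called higher. Cd4, Cd8a, Cd8b1 and Cd5 were at medians under 1 CPM, in cells gated as negative for CD3, CD4 and CD8. In NKG2A KO mice Trbj1-1 and Trbc1 had log2 fold changes of 0.69 (adjusted p = 0.00157) and 0.52 (adjusted p = 0.00112).

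By class of gene, calls were counted without a test. Of 48 long intergenic non-coding RNAs tested, 9 (18.8%) were higher and none lower, and of 43 processed transcripts 7 (16.3%) were higher and none lower, against 381 higher (4.20%) and 435 lower (4.79%) of 9073 protein-coding genes. None of 25 antisense genes was called. The 3 small nucleolar RNAs tested, Rnu3a, Snord13 and Snord104, were all higher. The share of reads given to no gene was higher in the same libraries, and its part in these counts was not tested. Among protein-coding genes, median transcript length was 3278 bases for higher, 2721 for lower and 3386 for all tested genes, and median GC content was 51.2%, 48.6% and 49.4%.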
